A study of Mus musculus with 14 samples.

Results

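Of the 4004 regions bound by Mll1 in untreated mouse embryonic stem cells, 907 carried no methylation of histone H3 lysine 4 (H3K4): no peak of H3K4me1, H3K4me2 or H3K4me3 from untreated cells overlapped them by as much as 1 bp. They made up 22.7% of the Mll1 list (95% exact Clopper-Pearson interval 21.4 to 24.0). The other 3097 Mll1 peaks overlapped at least 1 of these marks, and 1826 of them overlapped all 3. The unmarked peaks were thus chosen by the Mll1 list and the 3 untreated mark lists, so their lack of a mark in untreated cells is the rule and not a result. A treated list could only leave them unmarked or add a mark.

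Every library came from blastocyst-derived embryonic stem cells of the C57BL/6J strain with the genotype Mll1fl/fl; Cre-ER TM, in which 4-hydroxytamoxifen (4-OHT) activates Cre to delete the floxed Mll1 alleles. Marks were mapped in cells given the Mll1 inhibitor MM-401 at 100 µM, in cells given 4-OHT at 5 µM, each for 9 days and 3 passages, and in untreated cells, with 1 library per mark and condition. Mll1 itself was mapped only in untreated cells, so whether it left these sites after treatment was not measured. All cells grew without feeders on Matrigel with LIF, 5% serum and 15% serum replacement (KSR), and whether the groups came from separate cultures is not given. The deposited data are peak lists, and the M used below stands for 1000000 sequenced tags. The Mll1 list rested on 30.1 M filtered tags. The MM-401 libraries held 22.2 M tags for H3K4me1, 19.8 M for H3K4me2 and 12.9 M for H3K4me3. The 4-OHT libraries held 61.8 M, 48.6 M and 26.4 M for these marks, and the untreated libraries 36.9 M, 40.1 M and 25.3 M. The MM-401 libraries were processed apart from the rest, per the file headers, so MM-401, its batch and its lower depth cannot be told apart. In the check of the label, an H3K4me3 peak lay at an end of 9 of 10 embryonic stem cell marker genes in each condition (Esrrb had none). It also lay at 4 of 4 neural precursor markers, 4 of 5 primitive endoderm markers (Gata4 had none) and 4 of 9 fibroblast markers (not at Col3a1, Postn, Fap, Dcn or Lum), so an H3K4me3 peak at these genes does not tell the cell types apart.

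Mll1, also called Kmt2a, is a histone methyltransferase that works in a complex with Wdr5, Rbbp5, Ash2l and Dpy30 and adds methyl groups to H3K4. Its CXXC domain binds DNA in which CG dinucleotides are unmethylated, as they are in CpG islands at many gene starts. H3K4me3 is typical of active and poised gene starts, H3K4me2 of starts and enhancers, and H3K4me1 marks enhancers and the edges of start regions.

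Few of the unmarked Mll1 peaks touched a gene start, and the DNA of these few is shown because it is the part of the set where a promoter sequence can be read. Promoters were the RefSeq windows of GRCm38.p6 running from 250 bases before to 50 bases after a start. Only 4 of the 907 unmarked peaks overlapped such a window (0.441%, interval 0.120 to 1.13), against 262 of the 3097 marked peaks (8.46%, interval 7.50 to 9.50). Of those 262, 201 had all 3 marks. Mll1 peaks with H3K4me1 alone (1 of 360, 0.278%) or with H3K4me1 and H3K4me2 (5 of 684, 0.731%) touched a window as seldom as the unmarked ones, with intervals that overlap theirs. The 4 genes were Anks1b, which encodes a neuronal scaffold protein, P2ry14, a receptor for UDP-sugars, and the predicted genes Gm46898 and Gm52481. Below, each sequence is the stretch shared by the Mll1 peak and the promoter window, read 5′ to 3′ on the strand of the gene, with every CG dinucleotide in capitals. For comparison follow the highest-scoring Mll1 peaks with all 3 marks that lie wholly in a window, at Ubr3, a ubiquitin ligase gene, Atp6v0d1, a subunit gene of the vacuolar proton pump, and Kdsr, a gene of sphingolipid synthesis.
Anks1b (chr10:90576441-90576637, plus strand, unmarked): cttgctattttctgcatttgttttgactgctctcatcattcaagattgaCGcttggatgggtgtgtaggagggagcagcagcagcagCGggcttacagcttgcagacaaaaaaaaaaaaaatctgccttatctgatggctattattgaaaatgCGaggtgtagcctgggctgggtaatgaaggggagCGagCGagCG
P2ry14 (chr3:59131286-59131505, minus strand, unmarked): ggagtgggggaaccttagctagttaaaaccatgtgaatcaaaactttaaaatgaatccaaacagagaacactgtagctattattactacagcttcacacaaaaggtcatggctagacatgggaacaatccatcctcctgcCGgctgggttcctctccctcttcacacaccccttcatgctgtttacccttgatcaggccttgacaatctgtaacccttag
Gm46898 (chr4:147411472-147411574, plus strand, unmarked): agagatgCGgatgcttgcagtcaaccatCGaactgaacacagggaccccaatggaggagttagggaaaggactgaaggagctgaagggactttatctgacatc
Gm52481 (chrY:90742562-90742778, plus strand, unmarked): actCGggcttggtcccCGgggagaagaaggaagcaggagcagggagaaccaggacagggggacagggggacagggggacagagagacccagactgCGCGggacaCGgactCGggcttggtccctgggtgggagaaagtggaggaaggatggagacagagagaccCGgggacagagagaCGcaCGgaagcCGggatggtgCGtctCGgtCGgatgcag
Ubr3 (chr2:69897060-69897288, plus strand, all 3 marks): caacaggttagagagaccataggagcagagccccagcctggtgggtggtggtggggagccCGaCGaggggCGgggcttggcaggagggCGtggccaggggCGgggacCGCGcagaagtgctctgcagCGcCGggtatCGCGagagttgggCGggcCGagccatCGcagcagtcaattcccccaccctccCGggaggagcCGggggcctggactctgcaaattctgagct
Atp6v0d1 (chr8:105566035-105566313, minus strand, all 3 marks): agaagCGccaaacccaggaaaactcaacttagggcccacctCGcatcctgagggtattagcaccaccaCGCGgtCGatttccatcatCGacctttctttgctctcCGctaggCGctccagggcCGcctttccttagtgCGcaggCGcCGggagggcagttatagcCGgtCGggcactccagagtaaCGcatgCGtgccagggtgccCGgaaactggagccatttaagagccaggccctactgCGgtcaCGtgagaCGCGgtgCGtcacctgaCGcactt
Kdsr (chr1:106759760-106759986, minus strand, all 3 marks): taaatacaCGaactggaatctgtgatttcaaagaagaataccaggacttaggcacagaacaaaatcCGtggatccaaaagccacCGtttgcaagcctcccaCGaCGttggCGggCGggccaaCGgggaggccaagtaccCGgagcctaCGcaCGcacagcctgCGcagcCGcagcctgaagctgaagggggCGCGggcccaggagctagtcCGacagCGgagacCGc

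The printed stretches held 6 CG in Anks1b, 1 in P2ry14, 2 in Gm46898 and 13 in Gm52481, against 16 in Ubr3, 23 in Atp6v0d1 and 18 in Kdsr. The unmarked stretches thus held fewer CG than the 3 marked ones, but they were also shorter, at 103 to 220 bp against 227 to 279 bp. The richest of them was that of the predicted gene on chromosome Y. Over its whole window Gm52481 had 20 CG, more than Ubr3 with 18 and fewer than Atp6v0d1 and Kdsr with 26 each. Over whole windows of 300 bases, the 5 windows under unmarked Mll1 peaks had a median of 4 CG (lowest 1, highest 20), and P2ry14 gave 2 of the 5. The 307 windows under marked Mll1 peaks had a median of 19, and all 32817 windows a median of 7. The letters CG read the same on both strands. At least 10 CG were found in 1 of the 5 windows under unmarked peaks, in 82.4% of those under marked peaks and in 43.4% of all windows. With 5 windows from 4 peaks this is a description only.

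Nearly all unmarked Mll1 peaks lay away from the ends of protein-coding genes. Of the 907, 26 came within 1 kb of a gene end (2.87%, interval 1.88 to 4.17), 418 lay farther inside a gene body (46.1%, interval 42.8 to 49.4) and 463 between genes (51.0%, interval 47.7 to 54.3). Among marked Mll1 peaks, 26.5% were at gene ends, 40.9% in gene bodies and 32.5% between genes. Marked classes differed widely among themselves: 36.6% of peaks with all 3 marks were at gene ends, and 46.7% of the 227 peaks with the less common combinations (interval 40.1 to 53.4). Mll1 peaks with H3K4me1 alone had 4.72% at gene ends and those with H3K4me1 and H3K4me2 4.39%, both with intervals that overlap that of the unmarked peaks. In the mark-free genome, cut into 11603222 windows of 200 bp that no untreated mark overlapped, 1.99% of windows were at gene ends, 34.8% in gene bodies and 63.2% between genes. The unmarked Mll1 peaks were therefore more often inside genes than the mark-free genome as a whole. That background includes sequence to which short tags may not be assigned, and the part of this in the difference was not tested. All intervals cover counting error over peaks of 1 library, and no replicate exists to test any of these differences.

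**Figure D1:**
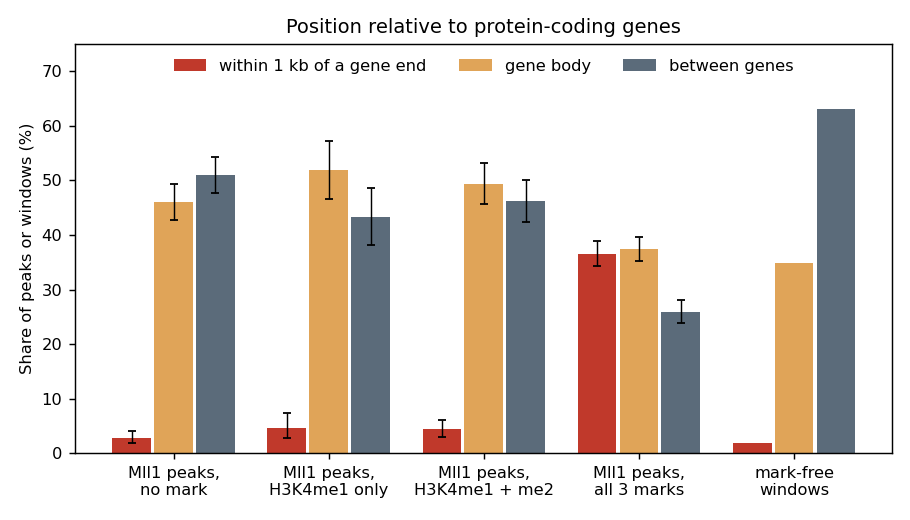
Share (%) of Mll1 peaks within 1 kb of a gene end, in gene bodies and between genes, for unmarked peaks, peaks with H3K4me1 only, with H3K4me1 and H3K4me2, and with all 3 marks, and last for mark-free windows; bars start at 0 and lines on the peak bars are exact 95% intervals. The gene-end bar is 2.87% for unmarked peaks and 36.6% for peaks with all 3 marks.

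Measured to the nearest RefSeq start of any gene, 15 of the 883 unmarked peaks on chromosomes with listed starts were within 1 kb (1.70%, interval 0.954 to 2.79), and the median distance was 25588 bp. For marked peaks 779 of 3007 were within 1 kb (25.9%) and the median was 7326 bp. Peaks with H3K4me1 alone had 1.71% within 1 kb and a median of 17545 bp. The unmarked peaks were the farthest from starts of these classes. Even the 26 at gene ends were seldom at the starting end: of 24 whose gene has a listed start, 3 were within 1 kb of it. These were 1 peak at Apoh, which encodes a phospholipid-binding plasma protein, and 2 peaks at Gm52481. The other 21 lay more than 1 kb from every listed start of their own gene.

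The genes that hosted unmarked peaks were long, as were those of peaks with H3K4me1 but no H3K4me3. The 435 unmarked peaks inside a gene had hosts with a median length of 90.8 kb (quartiles 41.3 and 200.2 kb), against 45.0 kb for the 1784 marked peaks inside genes and 17.2 kb over all 21887 protein-coding genes. Hosts had a median of 79.7 kb for peaks with H3K4me1 and H3K4me2, 69.6 kb with H3K4me1 alone and 31.6 kb with all 3 marks. Host genes longer than 300 kb held 72 of the 435 (16.6%), against 8.81% for H3K4me1 and H3K4me2, 7.14% for H3K4me1 alone and 4.94% for all 3 marks. A long gene offers more sequence to fall into, so these medians are not a measure of preference. Among the long hosts were Ptprd, a receptor phosphatase of neurons, with 3 unmarked peaks inside it and no marked one nearest to it or inside it, Lrp1b, an endocytic receptor of the LDL receptor family, with 2, and Csmd1 and Csmd3, large membrane proteins with CUB and sushi domains, with 1 each.

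Most unmarked peaks lay within a few kb of a marked region. The median gap to the nearest untreated mark peak was 3575 bp (95% interval of the median 3184 to 3976, quartiles 1126 and 12566), whereas the median for mark-free windows was 14323 bp (quartiles 3979 and 47673). The gap was up to 1 kb for 209 unmarked peaks (23.0%) and for 8.64% of windows. It was 1 to 10 kb for 436 peaks (48.1%) and 33.7% of windows, 10 to 100 kb for 244 peaks (26.9%) and 44.4% of windows, and over 100 kb for 18 peaks (1.98%) and 13.2% of windows. Unmarked Mll1 peaks were thus shifted toward marked regions relative to the mark-free genome. The windows were not filtered for sequence to which short tags can be assigned.

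**Figure D2:**
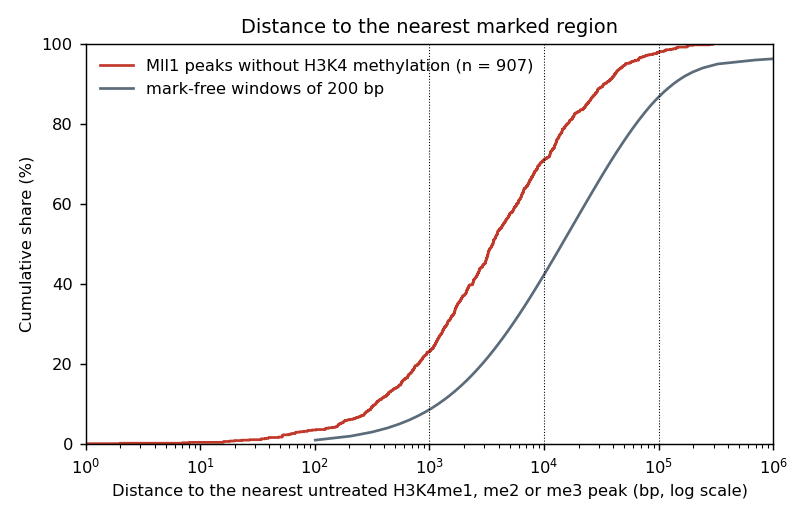
Cumulative share (%) of unmarked Mll1 peaks and, second, of mark-free 200-bp windows against the distance in bp (log scale) to the nearest untreated H3K4me1, H3K4me2 or H3K4me3 peak; dotted lines stand at 1, 10 and 100 kb. The curve of the Mll1 peaks lies to the left, with medians of 3575 bp for the peaks and 14323 bp for the windows.

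The nearest mark was H3K4me1 for 690 of the 907 peaks, alone or tied (76.1%), H3K4me2 alone for 196 (21.6%) and H3K4me3 alone for 20 (2.21%). Median distances to each mark were 3908 bp for H3K4me1, 6067 bp for H3K4me2 and 13190 bp for H3K4me3. The H3K4me1 list is also the largest, with 119739 peaks over 290.0 Mb, against 91.4 Mb for H3K4me3, so it covers more of the genome. The nearest H3K4me1 peaks were ordinary for their list, with a median width of 1839.5 bp and 119 tags beside 1759 bp and 111 tags for all of it. The nearest H3K4me3 peaks were small, with a median of 40 tags over 21 peaks against 98 tags in the list. The nearest marked Mll1 peak was a median of 226202 bp away for the 886 unmarked peaks outside chromosome Y, which has no marked Mll1 peak. There were only 3097 marked Mll1 peaks, against 119739 H3K4me1 peaks, and the part of peak number in this distance was not tested.

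The cut at 0 bp ran through a continuum. Just inside, unmarked peaks lay 1 bp from a mark at Thada, 2 bp in Tulp3, 7 bp in Ank2, 8 bp in Elavl3 and 16 bp near Rexo2. Just outside, marked peaks shared 8 bp with a mark near Capza2, 12 bp in Iqcg, 18 bp near both Fgd2 and Actr10, and 21 bp in Mettl15. At the other extreme, the unmarked peak farthest from any mark lay 297093 bp from it, on chromosome 17 at 77530282 to 77530412, with Crim1 as nearest coding gene. Next came a peak 277219 bp away on chromosome 6 nearest to 2610001J05Rik. Another lay 198267 bp from a mark, with Ephb1, an ephrin receptor gene, as nearest coding gene at 210793 bp. Inside genes, the farthest were in Ptprd (146756 bp) and Lrp1b (140424 bp). The remoter classes were more often between genes: 47.4% up to 1 kb, 46.8% at 1 to 10 kb, 59.8% at 10 to 100 kb and 77.8% (14 of 18) beyond.

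By the strength of Mll1 binding itself, most unmarked peaks looked like the marked ones. Their median was 11 tags, a width of 159 bp, a summit enrichment of 9.41-fold and a caller score of 54.6, which is 10 times the negative log10 of the p that the caller computed. Mll1 peaks with all 3 marks had medians of 11 tags, 167 bp, 9.84-fold and 56.1. The lowest score the caller let through was near 50, so both sets were mostly close to the limit of detection. In the Mll1 list the caller modelled a fragment of 53 bp, beside a tag of 51 bp, while in the mark lists it modelled 179 to 293 bp. The part of this in the peak calls was not tested.

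A small group stood apart. Peaks of 30 tags or more, a limit set after earlier results of these data were known, numbered 53 of the 907 unmarked peaks (5.84%, interval 4.41 to 7.57) and 42 of the 3097 marked peaks (1.36%, interval 0.979 to 1.83). These 53 held 27589 of the 37202 tags in unmarked peaks (74.2%). They were wide and weakly enriched over local background, with medians of 615 bp, 231 tags and 4.09-fold, while the other 854 had 158 bp, 11 tags and 9.62-fold. The 42 marked peaks of 30 tags or more were also wide and weakly enriched, with medians of 455.5 bp, 107 tags and 4.95-fold. These traits are therefore not particular to unmarked peaks. The 53 were also farther from marks, with a median gap of 36926 bp against 3244 bp for the 854. The unmarked set therefore held 854 narrow peaks of few tags and 53 broad peaks of many tags, and the results below are given for each where they differ.

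**Figure D3:**
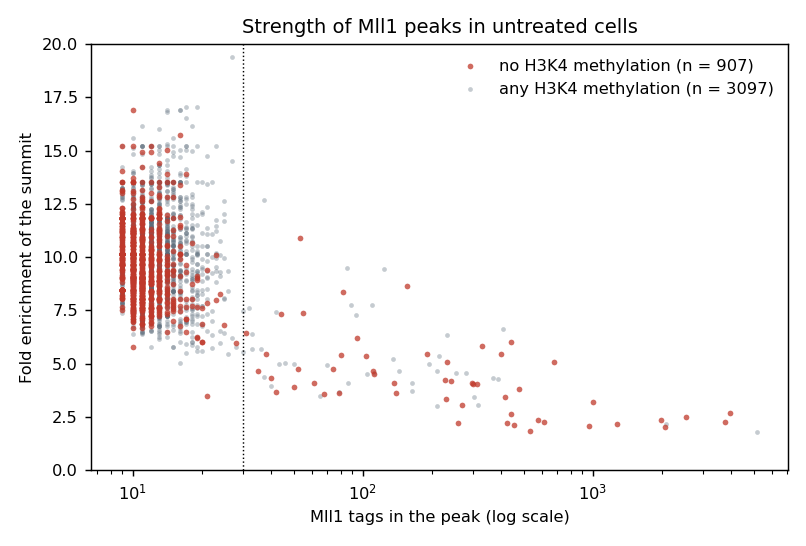
Fold enrichment of the summit over local background against tags in the peak (log scale) for each of 907 unmarked and 3097 marked Mll1 peaks; the dotted line stands at 30 tags. Most points of both sets are between 9 and 28 tags, and 53 unmarked against 42 marked peaks are at 30 tags or more.

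The 53 broad peaks lay in 18 places when peaks within 100 kb were joined, and 6 places with at least 2 of them held 41. The largest was on chromosome Y at 90738046 to 90813213, where 21 peaks held 2453 tags with 3.56-fold to 8.66-fold enrichment around Gm52481. On chromosome 11 at 3126872 to 3194455, 8 peaks held 11883 tags, 7 of them in Sfi1, a centrosomal protein gene, and 1 between genes 4127 bp from it, at only 2.03-fold to 3.32-fold. A run of 5 peaks with 2074 tags lay on chromosome 9 at 2999994 to 3036478, nearest to Alkbh8, and 3 peaks with 2673 tags on chromosome 2 at 98662213 to 98667336, nearest to Lrrc4c. Peaks in 1 such place are not independent of each other. Lone broad peaks included 1 of 3766 tags and 2.25-fold on chromosome 14 nearest to Gm2244 and 1 of 578 tags and 2.37-fold in Aida, an axin-interacting protein gene. The 10 highest scores among all unmarked peaks belonged to broad peaks. The highest was 325, with Ly6c2 as nearest coding gene at 21111 bp. The 10 included 2 peaks nearest to Ly6c2, 3 nearest to Gm52481 and 1 each in Aida and Sfi1. A high score did not go with a low false discovery rate from the caller. The rate was 0% for the highest score and ran from 15% to 37.5% for the others of the 10. It was over 5% for 26 of the 53 broad peaks and for 16 of the other 854 unmarked peaks. Among marked peaks of 30 tags or more it was over 5% for 23 of 42.

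By chromosome, all 21 Mll1 peaks on Y were unmarked, and each had 30 tags or more. On X, 11 of 17 Mll1 peaks were unmarked (64.7%, interval 38.3 to 85.8). The share on the 19 autosomes ran between 14.8% on chromosome 15 and 29.4% on chromosome 3. Among peaks under 30 tags the density per 100 Mb of mark-free sequence was 6.23 on X and none were on Y, against 25.5 to 58.9 on autosomes with a median of 42.5.

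Most unmarked peaks had no near Mll1 neighbour. With neighbours counted within 10 kb, 815 of 907 stood alone (89.9%), against 77.8% of marked peaks. Groups of 3 or more Mll1 peaks held 39 unmarked peaks (4.30%), 33 of them with 30 tags or more, against 201 marked peaks (6.49%). With neighbours within 1 kb the shares ran the other way, with 23 unmarked peaks (2.54%), all of 30 tags or more, against 18 marked peaks (0.581%). The nearest other Mll1 peak was a median of 145467 bp away for unmarked peaks and 59109 bp for marked ones.

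Each peak was assigned to its host or nearest coding gene and counted in gene lists, beside the share of all genes that the list makes up. In the list of core and naive pluripotency genes, 0 unmarked and 31 marked peaks (1.00%) were counted. The list makes up 0.0938% of genes, so a count of 0 unmarked peaks is near its share of the genes and is not a result about them. A count of 0 of 907 allows a share of up to 0.331%, by the 3 counts a zero can hide. Clustered histone genes, 0.433% of genes, had 0 unmarked and 12 marked peaks. Among Mll complex members and other H3K4 enzymes, 1 unmarked peak lay in Kdm5c, an X-linked demethylase of H3K4, against 7 marked peaks for the list, which is 0.0759% of genes. That peak had 10 tags, the highest fold of the unmarked set (16.9) and a gap of 13927 bp. No Mll1 peak of either kind lay in or within 1 kb of Kmt2a, the Mll1 gene.

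Families of tissue-restricted genes were present in small numbers. Vomeronasal receptor genes, which serve pheromone detection and are 1.58% of genes, were nearest to 7 unmarked peaks (0.772%) and 2 marked peaks (0.0646%). Of the 7, 6 had 10 to 14 tags and 1, nearest to Vmn1r238, had 440. Olfactory receptor genes, 4.96% of genes, were nearest to 5 unmarked (0.551%) and 6 marked peaks (0.194%), below their share of genes in both sets. Zinc finger genes of the Zfp family took 22 unmarked (2.43%) and 88 marked peaks (2.84%), and are 1.79% of genes. Zfp978 was host or nearest gene for 5 of the 22. Germline genes had 2 unmarked peaks, in Tex14, needed for the bridges between germ cells, and in Sycp1, a synaptonemal complex protein, and 2 marked ones, and are 0.0714% of genes. A list pooled by symbol, of cadherins, contactins, Lrp1b, Csmd genes and others, had 6 unmarked peaks (0.662%) and 10 marked ones (0.323%). It makes up 0.228% of genes. Of the 6 peaks, 2 were in Lrp1b and 1 each in Csmd1 and Csmd3. Cdh20 (1994863 bp away) and Cntn3 (34609 bp away) were each the nearest gene of 1 peak. Predicted genes, 5.94% of genes, had 44 unmarked peaks (4.85%), of which 21 were those of Gm52481, and 46 marked ones (1.49%). Potassium channel genes (0.420% of genes) had 3 unmarked and 7 marked peaks, protocadherins (0.308%) 1 unmarked and 5 marked, and cytochromes P450 (0.442%) 2 unmarked and 3 marked. Major urinary protein genes (0.107%) had 1 unmarked peak and no marked one. Serpins (0.281%) had no unmarked and 2 marked peaks, glutamate and GABA receptors (0.210%) likewise, immunoglobulin and T cell receptor loci (2.08%) no unmarked and 1 marked, and keratins (0.500%) none of either kind. These counts are small, and no difference between them was tested. Peaks were assigned by position, and a share of genes takes no account of gene length or spacing. A family above or below its share of genes is therefore not a result about that family.

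Hox genes, the classic targets of Mll1 in development, had 3 unmarked peaks (0.331%) and 4 marked ones (0.129%), and are 0.174% of genes. The unmarked peaks were 275 bp from a mark near Hoxc11, 1147 bp near Hoxb9 and 1977 bp near Hoxd1, with 11, 11 and 9 tags. The Hoxc11 peak lay on chromosome 15 at 102953380 to 102953567, 959 bp from a gene end. After 4-OHT an H3K4me1 peak of 4439 bp covered 125 bp of it and an H3K4me2 peak of 4114 bp covered 53 bp. Both of these treated peaks also overlapped an untreated peak of the same mark, so a region already marked in untreated cells was called over the Mll1 site after 4-OHT.

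At gene ends, the highest score was at the shared end of Cyfip1 and Nipa2 on chromosome 7 at 55932236 to 55932399, with 15 tags, 12.82-fold enrichment and 6315 bp to the nearest mark. Cyfip1 is a regulator of actin and translation and Nipa2 a magnesium transporter. Next were Vwce with 20 tags and Dimt1, an rRNA methylase gene, with 13. No treated list marked any of these 3. Map3k1, a MAP kinase kinase kinase gene, followed with 12 tags and a gap of only 40 bp, and Thada with 13 tags and a gap of 1 bp. Of the 26 gene-end peaks, 8 carried a mark after 4-OHT, at Mptx1, Sumo2, Map3k1, Oxnad1, Hoxc11, Scaf4, Riok2 and Thada. Only the Thada peak carried one after MM-401.

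After 4-OHT, H3K4me1 was the mark that came to cover unmarked Mll1 sites most often. It covered 135 of the 907 (14.9%, interval 12.6 to 17.4), beside 2.82% of mark-free windows. H3K4me2 covered 30 (3.31%, interval 2.24 to 4.69), beside 0.403% of windows, or 1.21% with treated peaks of score 100 or more and 1.76% with lists of equal number. H3K4me3 covered 6 (0.662%, interval 0.243 to 1.43), beside 0.0349%. These 6 lay under 5 treated peaks, so they are not all independent. They were 386 to 3623 bp wide, against 200 bp for a window, and the part of width in the contrast was not tested. In all, 149 Mll1 peaks carried at least 1 mark (16.4%), 22 carried 2 and none carried all 3. Marked Mll1 peaks that lacked the mark in question in untreated cells gained it more often: 39.8% (90 of 226) for H3K4me1, 47.9% (175 of 365) for H3K4me2 and 22.7% (245 of 1079) for H3K4me3. These peaks overlapped another untreated mark, which the unmarked ones did not. Among unmarked peaks up to 1 kb from a mark, the shares were 35.4% for H3K4me1, 5.74% for H3K4me2 and 0.478% for H3K4me3. The part of distance in these differences was not tested. The 4-OHT H3K4me1 library was the deepest of the series, and the part of its depth in these counts was not tested.

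Distance to a mark went with this cover. H3K4me1 after 4-OHT covered 74 of 209 peaks up to 1 kb from an untreated mark (35.4%, interval 28.9 to 42.3), 54 of 436 at 1 to 10 kb (12.4%, interval 9.44 to 15.8), 7 of 244 at 10 to 100 kb (2.87%, interval 1.16 to 5.82) and 0 of 18 beyond. In windows of the same distances it covered 18.1%, 2.93%, 0.567% and 0.125%. The share at Mll1 sites was above that of windows in the 3 nearest classes. Within a class the peaks were somewhat nearer to marks than the windows, with median gaps of 390 bp for peaks against 464 bp for windows in the nearest class. The medians were 3198.5 bp for peaks against 4106 bp for windows at 1 to 10 kb, and 23000 bp against 28327 bp at 10 to 100 kb. H3K4me2 after 4-OHT followed the same order, with 5.74%, 3.21% and 1.64% of the peaks against 2.25%, 0.467% and 0.105% of the windows.

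Most of the H3K4me1 cover lay in regions that also held H3K4me1 in untreated cells. Of the 135 peaks, 92 (68.1%) lay under a 4-OHT peak that also overlapped an untreated H3K4me1 peak, and 43 lay under a 4-OHT peak that overlapped no untreated mark. The covering peaks had a median width of 3656 bp, against 1952 bp in the whole 4-OHT list. A wide peak covers more sequence, so any site falls under it more readily than under a narrow one. The widths of peaks over mark-free windows were not measured, so whether this difference is a trait of Mll1 sites was not tested. For H3K4me2, 8 of 30 were reached by an existing H3K4me2 region, 3 by a peak overlapping another untreated mark, and 19 lay under a peak that stood alone. Those 19 were under weak peaks, with scores of 52.8 to 129, and 3 of them reached 100. With only treated peaks of score 100 or more, 11 sites carried H3K4me2, and 7 of the 11 were reached by an existing H3K4me2 region. After 4-OHT, 15 sites lay under a peak at the upper limit of the score, near 3100, where peaks are tied and cannot be ranked. For H3K4me1 these were 10 sites, in Mbtd1, Nmnat2, Hipk1, Epb41, Zfp985, Gas2 and Ptges3, near Cyp2s1 and Adat1 and at an end of Oxnad1. For H3K4me2 they were 4, in Tbc1d8, Ranbp2 and Abhd10 and at Hoxc11, and for H3K4me3 1, in Aida. In Nmnat2, an NAD synthesis enzyme of neurons, the covering H3K4me1 peak was 23753 bp wide with 5194 tags and its site was 290 bp from an untreated mark. In Hipk1, a nuclear kinase gene, the peak was 9657 bp wide with 1947 tags.

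**Figure D4:**
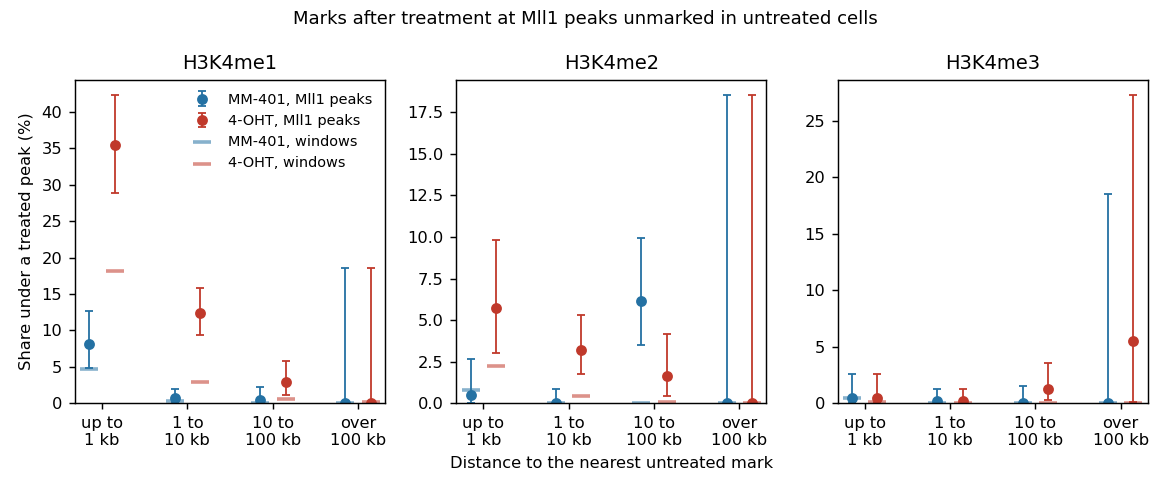
Share (%) of the 907 unmarked Mll1 peaks under an H3K4me1, H3K4me2 or H3K4me3 peak after MM-401 or 4-OHT, by distance to the nearest untreated mark (209, 436, 244 and 18 peaks); dots with exact 95% intervals are Mll1 peaks and dashes are mark-free windows, and each panel has its own axis. For H3K4me1 after 4-OHT the dots are at 35.4%, 12.4%, 2.87% and 0%.

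After MM-401 few unmarked sites carried a mark. H3K4me1 covered 21 of 907 (2.32%, interval 1.44 to 3.52), beside 0.548% of windows, H3K4me2 covered 16 (1.76%, interval 1.01 to 2.85), beside 0.0777%, and H3K4me3 covered 2 (0.221%, interval 0.0267 to 0.794), beside 0.0465%. The 16 sites with H3K4me2 lay under only 3 treated peaks. They are not independent of each other, and their interval, which counts each site alone, does not allow for this. These 16 sites were 170 to 1245 bp wide and the 2 with H3K4me3 472 and 3623 bp. The windows were 200 bp wide, and the part of width was not tested. No Mll1 peak carried more than 1 of the marks. Of the 21 with H3K4me1, 17 were up to 1 kb from an untreated mark (8.13% of 209, interval 4.81 to 12.7, against 4.75% of windows), and 17 lay under a peak that also overlapped an untreated H3K4me1 peak. They included sites in Aff1, which encodes a transcription elongation factor that is a fusion partner of MLL1 in human leukaemia, Raly, Epb41, Hipk1, Csrnp3, Ubtd1 and Mtcl1, and near Klf9 and Smad7. At Aff1 the covering peak was 22239 bp wide with 2270 tags, and the site lay 67 bp from an untreated mark. Marked Mll1 peaks that lacked the mark gained it in 22.1% (H3K4me1), 12.1% (H3K4me2) and 3.89% (H3K4me3) of cases. These peaks too overlapped another untreated mark, and the part of distance was not tested.

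The narrow and the broad peaks differed in which marks they carried after treatment. Among the 854 with under 30 tags, MM-401 lists put H3K4me1 on 21 and neither H3K4me2 nor H3K4me3 on any, a count that allows a share of up to 0.351%. The 4-OHT lists put H3K4me1 on 134 of the 854, H3K4me2 on 27 and H3K4me3 on none. All 16 sites with H3K4me2 after MM-401 and all sites with H3K4me3 after either treatment were among the 53 broad peaks. On chromosome Y, 13 of the 16 lay under a single H3K4me2 peak of 12601 bp with 2166 tags, and of the other 3, 2 were in Sfi1 and 1 lay 4127 bp from it. The 6 with H3K4me3 after 4-OHT included sites in Aida and Sfi1. The others lay between genes. Their nearest coding genes were Lrrc4c (1034560 bp away), Rpusd4 (29252 bp) and, for 2 sites, Ly6c2 (21111 and 22280 bp). Aida and Sfi1 carried H3K4me3 under both treatments. These places already held many Mll1 tags at low fold over background, and the part of this in the mark calls was not tested.

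Read the same way in every condition, the rule left 1103 Mll1 peaks unmarked by the MM-401 lists (27.5%, interval 26.2 to 29.0), 790 by the 4-OHT lists (19.7%, interval 18.5 to 21.0) and 907 by the untreated lists (22.7%). The order follows the number of tags in the H3K4me1 libraries, which is lowest for MM-401 and highest for 4-OHT. With mark lists cut to equal numbers, the counts were 1103 for MM-401, 915 for 4-OHT and 1030 for untreated cells. The order was kept, but MM-401 and untreated cells were closer. The part of depth in it was not tested. Of the 3097 Mll1 peaks marked in untreated cells, 235 had no mark after MM-401 (7.59%) and 32 had none after 4-OHT (1.03%). Of the 907 unmarked ones, 741 (81.7%) had no mark in any of the 3 conditions. The median gap to any mark was 4946 bp by the MM-401 lists and 2633 bp by the 4-OHT lists, against 3575 bp by the untreated lists. Both treatments marked 22 of the 907 sites, which were 56.4% of the 39 marked after MM-401 and 14.8% of the 149 marked after 4-OHT. Among sites under 30 tags, 19 of the 21 marked after MM-401 were also marked after 4-OHT. The 2 treatments are set against the same untreated lists, so these shares are a description and not independent evidence of a common change.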

How the data were processed

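Chromatin immunoprecipitation and sequencing gave 10 peak lists, 1 per library, and the 4 inputs were used only by the authors as controls of the peak calls. Per the file headers, peaks were called with MACS 1.4.2 in each library alone, with a p cutoff of 1e-05, duplicate tags removed and a local background taken over 1000 and 10000 bp. The submitters' processing notes name Bowtie2, SAMtools 1.5, MACS2 and mm10, so notes and headers differ on the caller. The deposited counts are unscaled numbers of tags per peak. As a score the authors gave 10 times the negative log10 of the p. The ratio they deposited is the fold of the summit over local background, and the percent they deposited is the caller's false discovery rate. Other deposited values are the width and summit position in bp.

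Peaks on the 19 autosomes, X and Y were used, in 1-based coordinates of mm10. Overlap meant at least 1 bp. Genes, starts and promoter sequence came from RefSeq tables of GRCm38.p6, which is the same assembly as mm10; starts were listed for 17492 of 21887 protein-coding genes. A peak was placed at a gene end within 1 kb of either end of a coding gene, otherwise in a gene body or between genes. The background was every 200-bp window free of untreated marks. With 1 library per group no test was possible and no p was computed. Intervals are exact 95% intervals and cover counting error only. They count each peak as independent, which neighbouring peaks in 1 place are not. Python 3.11.15, NumPy 2.4.6, pandas 2.3.3 and SciPy 1.17.1 were used, and the overlap and distance code was tested on simulated data.

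The unmarked peaks, the gene lists and the alternatives were chosen with earlier results of these data known. Named peaks were those with the highest scores, at gene ends and anywhere, the farthest from marks, those nearest to the 0 bp limit, those under the strongest treated peaks, and those at genes of the lists. Apoh, Tbc1d8, Ranbp2, Abhd10, the marked promoters printed for comparison and the places of broad peaks were named after their values were seen.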

Additional observations from a re-analysis of the deposited data

How the results depend on the processing

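Of 64 alternative settings over these results, 42 moved a value by less than its interval or by less than 1.5 times, and 22 moved it further. Keeping only Mll1 peaks of score 100 or more left 22 unmarked of 73 (30.1%), 0% of them at gene ends, and a median gap of 37964 bp. Counting a gene end within 5 kb gave 18.4% at gene ends, and keeping only mark peaks of score 100 or more gave a median gap of 4655 bp. With a treated peak within 1 kb counted as cover, the shares after MM-401 were 16.4% (H3K4me1), 8.93% (H3K4me2) and 2.43% (H3K4me3), and after 4-OHT 31.6%, 18.3% and 4.96%. Among peaks with no untreated mark within 1 kb, H3K4me1 covered 0.573% after MM-401 and 8.74% after 4-OHT. With treated peaks of score 100 or more, 4-OHT gave 11.5% (H3K4me1) and 1.21% (H3K4me2). With mark lists cut to equal numbers, 4-OHT H3K4me2 covered 1.76%. With Mll1 peaks limited to a false discovery rate of 5% or less, the shares were 0.809% (MM-401 H3K4me2), 0% (MM-401 H3K4me3) and 0.116% (4-OHT H3K4me3). With only peaks under 30 tags, an alternative chosen after seeing the data, those 3 were each 0%. No paired analysis was possible because each group is 1 library and no result comes from a test. The MM-401 libraries were the shallowest of each mark, and the part of depth in these values was not tested.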
